A study of Rattus norvegicus with 12 samples.

Results

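The genes described here belong to the solute carrier families Slc1, Slc3, Slc6, Slc7, Slc36, Slc38 and Slc43 on a rat expression array. They were taken by gene name from the non-control probes of the array, without Slc7a11, which gave 60 genes of 35911 gene names, measured by 82 of 45598 probes. The families hold amino acid transporters of the plasma membrane and lysosome, but some members carry other substrates. Among these are Slc6a3 (dopamine), Slc6a8 (creatine) and Slc43a3 (nucleobases). One of the 60, Slc7a6os, is named for its place opposite Slc7a6 and is not a transporter. The rule uses no measured value, though the set was picked with earlier results of these data known. The study had 4 groups of 3 arrays each. The cultured groups were small hepatocytes, which are hepatocytic progenitor cells of the liver, from F344 rats (the DPPIV+ strain, per the labels). Per the labels, they had been sorted magnetically for CD44 on day 9, grown on Matrigel, and plated at passage 2 for 3 h on 1 of 3 coatings before RNA was taken. The group LN111 was plated on laminin-111, the group LN511 on laminin-511, and the group Mat on Matrigel, an extract of basement membrane. Their medium was serum-free DMEM/F12, which itself supplies amino acids, with added proline at 30 mg/L, nicotinamide at 10 mM, EGF at 10 ng/mL, dexamethasone, insulin, transferrin and selenium. They were set against mature hepatocytes freshly isolated from livers (MH), so culture, passage and cell type all differ between the cultured groups and MH and cannot be told apart. The labels name no separate animals or cultures for the replicates, so the p-values speak only for the spread among these samples, and that spread may be technical.

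Amino acid transporters set which amino acids a cell takes up, releases or exchanges. Sodium-coupled carriers such as the Slc38 and Slc1 proteins concentrate amino acids inside the cell, and exchangers such as the Slc7 light chains, which reach the membrane bound to an Slc3 heavy chain, trade one amino acid for another. Hepatocytes are known for glutamine, alanine and arginine handling through Slc38a3, Slc38a4 and Slc7a2, and growing cells are known for Slc1a5, Slc7a5 and Slc7a1. When amino acids run short, the kinase GCN2 raises translation of the factor ATF4, which binds an amino acid response element in the genes it controls.

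The promoters that held the core of that element are shown because the genes they belong to are among those measured below. The letters searched were TGATGNAA on both strands, in windows of 300 bases that run from 250 before to 50 after the gene's start, from RefSeq (build GRCr8). The core was found in 3 of the 45 members with a window (6.67%), and in 1141 of all 27457 genes with a window (4.16%). Of those 3 members, Slc1a4 and Slc38a1 were higher in cultured cells, and Slc7a1 differed between its probes as given below. All 3 passed the filter described below through a cultured group only, and such genes had to lie higher where they were seen. Their direction therefore says nothing of the motif. Of the members with a window, 16 were higher, 5 lower and 7 tested but not called. Capitals mark the match, which in Slc1a4 lies on the opposite strand, and which begins 235 (Slc1a4), 142 (Slc38a1) and 30 (Slc7a1) bases before the gene's start. The windows are chr14:98761513-98761812 on the minus strand, chr7:129681352-129681651 on the minus strand and chr12:11664238-11664537 on the plus strand.
Slc1a4: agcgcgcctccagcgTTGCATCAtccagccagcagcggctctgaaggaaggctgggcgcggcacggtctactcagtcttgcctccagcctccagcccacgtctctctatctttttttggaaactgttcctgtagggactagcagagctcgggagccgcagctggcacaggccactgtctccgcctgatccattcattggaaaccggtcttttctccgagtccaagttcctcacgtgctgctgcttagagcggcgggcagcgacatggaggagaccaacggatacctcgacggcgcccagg
Slc38a1: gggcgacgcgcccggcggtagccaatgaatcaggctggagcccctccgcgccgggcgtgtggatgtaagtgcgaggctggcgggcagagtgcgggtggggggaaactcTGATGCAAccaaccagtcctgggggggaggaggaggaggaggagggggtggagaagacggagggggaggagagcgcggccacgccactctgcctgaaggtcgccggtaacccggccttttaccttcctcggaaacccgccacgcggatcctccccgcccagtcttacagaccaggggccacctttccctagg
Slc7a1: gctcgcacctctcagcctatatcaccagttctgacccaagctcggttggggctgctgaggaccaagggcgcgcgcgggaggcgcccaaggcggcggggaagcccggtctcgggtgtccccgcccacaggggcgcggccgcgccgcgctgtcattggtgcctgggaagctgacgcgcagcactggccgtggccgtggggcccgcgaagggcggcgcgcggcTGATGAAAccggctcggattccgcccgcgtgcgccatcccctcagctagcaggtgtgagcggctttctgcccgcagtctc
A match is a description of these letters only, and binding was not measured.

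Signal is given throughout as scaled signal, the processed intensity divided so that the 75th percentile of each array stands at 1000. It compares arrays for one gene and not one gene with another. Examples of probe positions on the array's map (build rn4, per the file headers) are chr19:36049145-36049204 for Slc7a6, chr1:77124500-77124559 for Slc1a5, chr4:157771827-157771886 for Slc6a13 and chr7:135693025-135693084 for Slc38a4. An annotation of that build was not used here, so exons are not stated. Of the 58717 non-control spots, 52.18% to 62.75% were well above background on an array, and 0 were saturated. LN111 replicate 3 had 1126 spots with an outlier mark, against 350 to 499 on the other arrays. The 7 biliary and progenitor markers were higher in cultured cells, Cd44 among them, which was the sort marker. Of 8 hepatocyte markers, 7 were lower, and their summed scaled signal was 117694 to 368811 in cultured cells and 795170 to 882561 in MH. Both mesothelial markers tested, Msln and Wt1, were higher, with sums of 5950 to 30144 in cultured cells and 22 to 40 in MH. The 6 Kupffer cell markers were lower in cultured cells (sums of 120 to 2818, against 28759 to 30913 in MH), with Cd5l and Marco not well above background on any cultured array. The 6 sinusoidal endothelial markers were also lower (70 to 553, against 8778 to 9548 in MH), so the MH samples carried signal of these markers that the cultured samples nearly lacked. The part of such cells in the differences below was not tested. In bulk RNA, fewer cells of a type and less RNA per cell cannot be told apart.

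The first comparison asked how the transporter genes of cultured small hepatocytes differ from those of mature hepatocytes. Testing was limited to genes with a probe read well above background by every array of 1 or more groups, which held for 37 of the 60 members. Of these, 13 passed through a cultured group only and 2 through MH only, and such genes had to lie higher where they were seen. With limma and Benjamini-Hochberg adjustment over all 18955 genes tested (threshold 0.05), 21 members were higher and 8 lower in cultured cells. Among all genes tested, 72.8% passed (30.8% higher, 42% lower). The median log2 difference was 0.83 over the 37 members and -0.18 over all genes. Among the 20 members well above background on all 12 arrays, 10 were higher and 5 lower, where 72.3% of such genes passed (24.5% higher, 47.8% lower). The cultured and MH arrays did not overlap for 20 of the 37 members (12 higher, 8 lower), and for 57.5% of all genes tested. With another background correction (normexp) the split of the 37 was 13 higher and 12 lower, where 18.8% of all genes were higher and 51.3% lower. With slide as a block it was 12 higher and 6 lower, where 21.9% of all genes were higher and 31% lower.

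**Figure D1:**
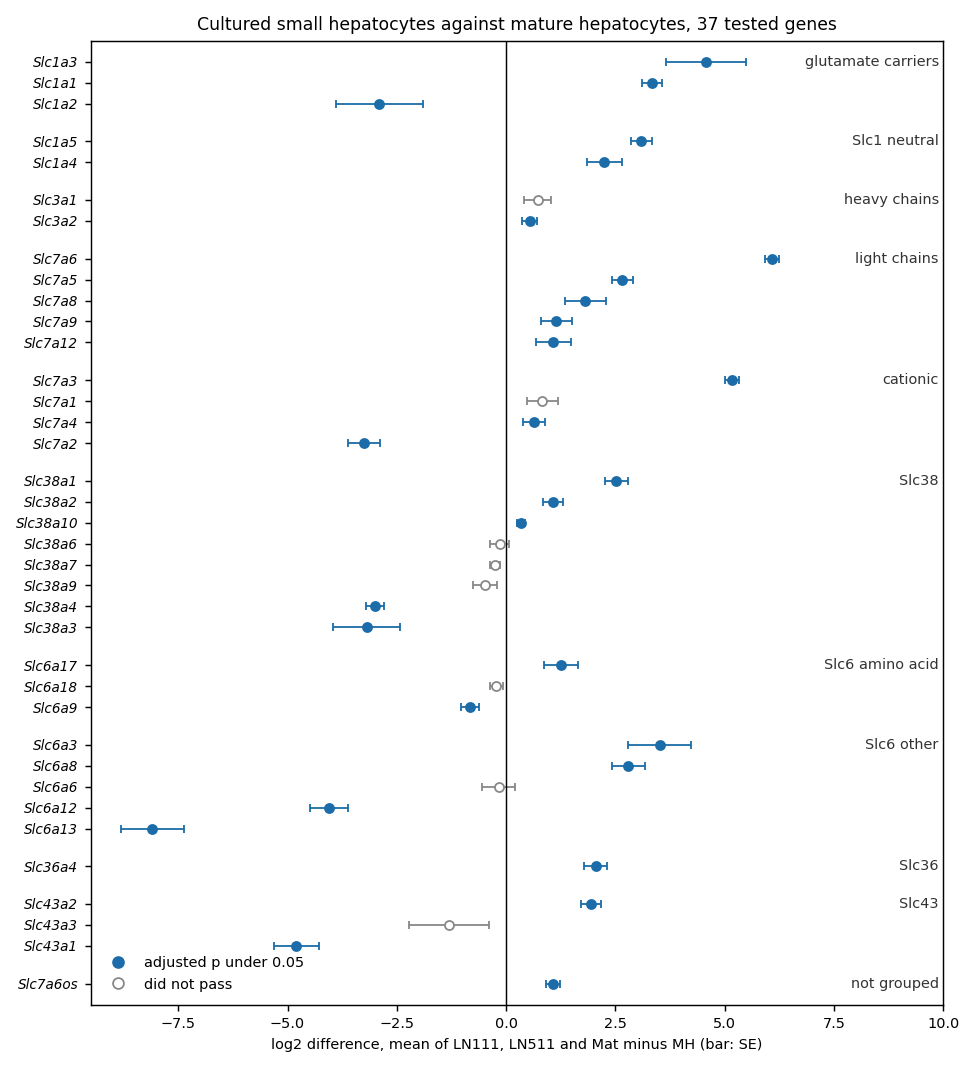
Log2 difference of cultured small hepatocytes (mean of LN111, LN511 and Mat) minus MH for the 37 tested genes, grouped by role, with the standard error of the limma fit as the bar. Filled points had an adjusted p under 0.05; Slc6a13 lies farthest to the left at -8.09 and Slc7a6 farthest to the right at 6.09.

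Among the high-affinity glutamate and aspartate carriers, Slc1a1 and Slc1a3 were higher and Slc1a2 was lower in cultured cells, and Slc1a6 and Slc1a7 were not tested. Slc1a1, which also carries cysteine, had a scaled signal of 49.8 to 125.5 (median 87.3) on the 9 cultured arrays and of 6.4, 11.1 and 7.2 in MH. All cultured arrays lay above all MH arrays. The probe was not well above background on any MH array, so only a bound can be given, at least 5.53-fold higher (log2 difference 3.34 ± 0.23 SE, limma adjusted p = 5.5e-07). For such a bound, a dim-group array keeps the probe's signal unless it lies under the weakest signal counted as well above background on that array. That weakest signal is then taken instead. The bright group's geometric mean is divided by the geometric mean of the dim group's values. A bound holds for the main fit only and not for the other settings. In those, the log2 difference of Slc1a1 fell as low as 0.59, under its bound. Slc1a3, the glial glutamate carrier GLAST, ran from 6.4 to 1248.6 (median 307.4) in cultured cells, against 5.9, 16.4 and 6.9 in MH, where it was not well above background. It was at least 13.3-fold higher in the geometric mean (4.57 ± 0.91, adjusted p = 0.00102), but LN511 replicate 2 fell within the MH range. With slide as a block it no longer passed (3.68, adjusted p = 0.0843). In other settings its difference fell as low as 1.94, under that bound. A second Slc1a3 probe, well above background on 5 of 9 cultured arrays and on no MH array, gave 1.69. Slc1a2, the carrier GLT-1, was the opposite, at 4.7 to 90.5 (median 70.1) in cultured cells and 346.5, 231 and 154.5 in MH. Its groups did not overlap, 6 of 9 cultured arrays were well above background, and the difference was -2.90 ± 1.00 (adjusted p = 0.0228). That call was lost without scaling (-1.86, adjusted p = 0.0779), with slide as a block (-4.15, adjusted p = 0.0738), without MH replicate 1 (-2.61, adjusted p = 0.0837) and without MH replicate 2 (-2.90, adjusted p = 0.0623). Slc1a6, a cerebellar glutamate carrier, was read at 2 to 5.1 in cultured cells and at 180, 25.3 and 155.9 in MH, and was well above background on 2 MH arrays only. Slc1a7 was well above background on no MH array.

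Both neutral amino acid exchangers of the Slc1 family were higher in cultured cells. Slc1a5 (ASCT2), a glutamine carrier of growing cells, had 547.4 to 1267.2 (median 903) on the cultured arrays and 82.5, 123.8 and 105.9 in MH. The groups stood well apart, with a difference of 3.09 ± 0.24 (adjusted p = 1.16e-06), or 8.49-fold. Slc1a4 (ASCT1), which carries alanine, serine and cysteine, had 46.9 to 101.7 (median 67) and, in MH, 15.1, 32.4 and 6, with 1 of 3 MH arrays well above background. Its difference was 2.25 ± 0.41 (adjusted p = 0.000597), and it did not pass under normexp (0.26, adjusted p = 0.14).

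Of the 9 light chains of the heteromeric carriers, 5 were tested, and Slc7a5, Slc7a6, Slc7a8, Slc7a9 and Slc7a12 were all higher in cultured cells. All of these but Slc7a8 had passed the filter through a cultured group only. Slc7a6, the y+LAT2 exchanger of cationic for neutral amino acids, had 353.3 to 599.3 (median 445.9) on the cultured arrays and 6.9, 5.6 and 7.6 in MH, where it was not well above background. It was at least 30.9-fold higher, the largest bound among the probes in the fit (6.09 ± 0.16, adjusted p = 1.28e-09). Its difference from MH was 6.15 in LN111, 6.02 in LN511 and 6.11 in Mat. In other settings the difference over the groups fell as low as 2.62, under that bound. Slc7a5 (LAT1), the leucine and glutamine exchanger, had 24.8 to 76.7 (median 37.5) and, in MH, 6.7, 5.7 and 7.6. It was at least 2.85-fold higher (2.66 ± 0.24, adjusted p = 3.51e-06), but under normexp, which lifts low signals, the difference was 0.13 (adjusted p = 0.518). Slc7a8 (LAT2), an exchanger of neutral amino acids, had 68.3 to 1977.6 (median 496.6) and, in MH, 110.9, 115.5 and 109.2. Its groups overlapped through LN511 replicate 2, with a difference of 1.81 ± 0.47 (adjusted p = 0.00557) that did not pass with slide as a block (1.12, adjusted p = 0.277).

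Slc7a9, the light chain of cystine uptake, had 10.5 to 34.2 (median 23.8) in cultured cells and 6.5, 7.7 and 17.7 in MH. It was at least 1.34-fold higher (1.15 ± 0.36, adjusted p = 0.0152), its arrays overlapped, and normexp turned the sign (-0.49, adjusted p = 0.0109). The call was also lost with low signals raised to background (0.44), with slide as a block (1.25), and without MH replicate 1 (0.87) or MH replicate 2 (0.99). Slc7a12, a further light chain of this family, was higher in LN511 (222.4, 154 and 67.7) than in LN111 (15.2, 39.1 and 32.8) or Mat (19.5, 17.6 and 21.6), and had 32.2, 14.7 and 15.5 in MH. Its difference from MH over the 3 groups, 1.08 ± 0.40 (adjusted p = 0.0309), was 2.77 in LN511, 0.47 in LN111 and 0.00 in Mat, of which that of LN511 passed (adjusted p = 0.000558), and normexp turned the mean over the groups to -0.22 (adjusted p = 0.441). The mean over the groups also did not pass without MH replicate 2 (0.88, adjusted p = 0.129) or MH replicate 3 (0.92, adjusted p = 0.119), with slide as a block (0.91, adjusted p = 0.317), or without replicate 2 of all 3 cultured groups (0.98, adjusted p = 0.0896). Slc7a7, Slc7a10, Slc7a13 and Slc7a15 were not tested, and Slc7a7, the y+LAT1 exchanger, read 3.9 to 19 in cultured cells and 14.6, 26.4 and 6.2 in MH.

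Of the heavy chains, Slc3a2 (CD98), which carries Slc7a5, Slc7a6, Slc7a7 and Slc7a8 to the membrane, had 2155.3 to 3302.3 (median 2621.6) in cultured cells and 1811.8, 2372.5 and 1492.7 in MH. The groups overlapped, and the difference was 0.54 ± 0.17 (adjusted p = 0.0167). It did not pass without MH replicate 1 (0.52, adjusted p = 0.0544), without MH replicate 3 (0.38, adjusted p = 0.101) or with slide as a block (0.32, adjusted p = 0.403). Slc3a1, which pairs with Slc7a9, had 13.3 to 60.8 (median 37.9) and, in MH, 34.8, 16.6 and 15.2, and did not pass (0.72 ± 0.30, adjusted p = 0.0504). Slc7a6os, the gene opposite Slc7a6, had 367.2 to 600 in cultured cells and 230.6, 244.5 and 175.7 in MH, a difference of 1.08 ± 0.16 (adjusted p = 0.000165). The probes of Slc7a6 and Slc7a6os lie 1954 bases apart on chromosome 19.

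**Figure D2:**
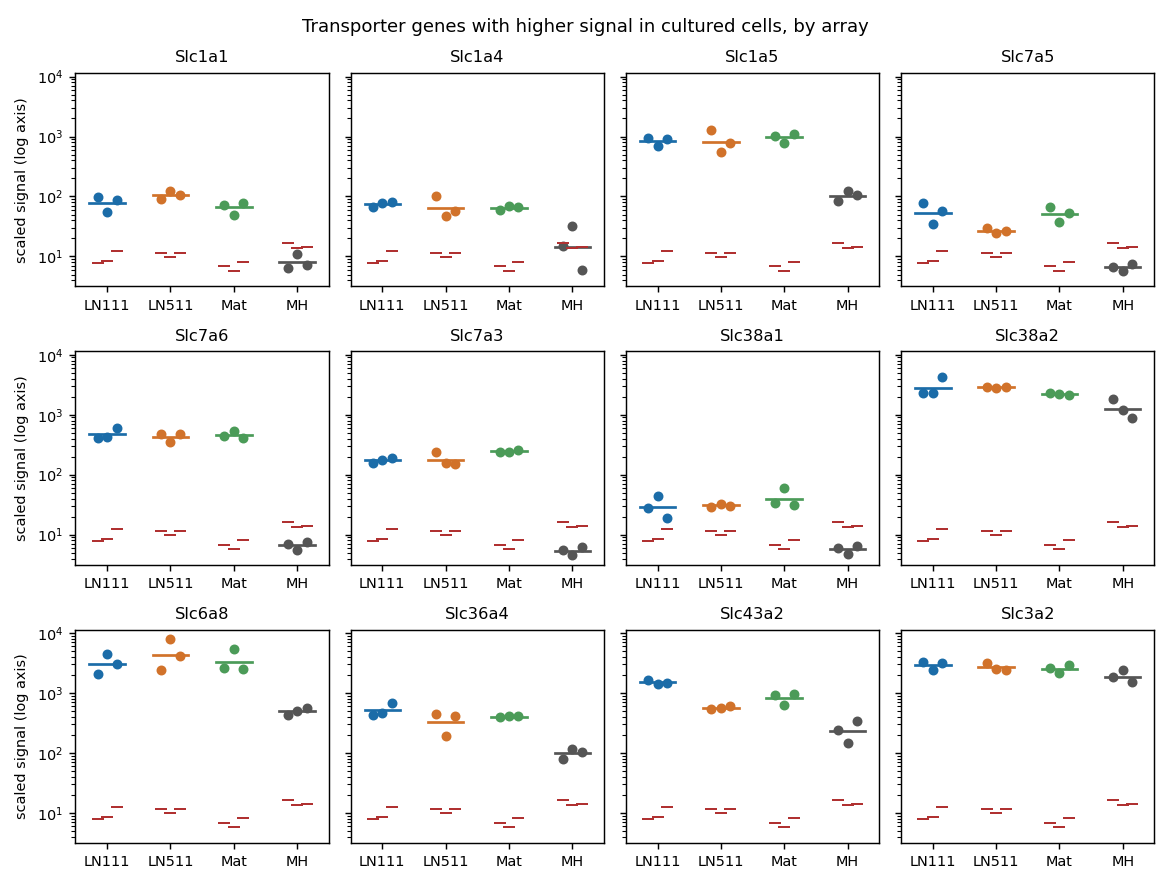
Scaled signal (log axis, 75th percentile of each array at 1000) on the 3 arrays of LN111, LN511, Mat and MH for 12 genes called higher in cultured cells. Points are arrays, horizontal bars geometric means and red dashes the weakest signal counted as well above background on each array; Slc7a6 and Slc7a3 lie under the dashes in MH and far above them in all cultured groups.

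The cationic amino acid transporters divided by member. Slc7a3 (CAT-3), known from brain, had 151.3 to 255.7 (median 193.3) in cultured cells and 5.6, 4.6 and 6.2 in MH. It was not well above background in MH and at least 13.3-fold higher in cultured cells (5.17 ± 0.16, adjusted p = 2.34e-09). In other settings its difference fell as low as 1.76, under that bound. Slc7a2 (CAT-2), the low-affinity arginine carrier of hepatocytes, had 24.1 to 98.6 (median 54) in cultured cells and 477.6, 458.9 and 492.7 in MH. Without overlap, its difference was -3.25 ± 0.36 (adjusted p = 1.67e-05), or 9.54-fold lower. Slc7a4, a relative with no settled transport activity, had 129.1 to 360.6 (median 253.6) and, in MH, 158.8, 104.1 and 212.7. It passed narrowly (0.64 ± 0.26, adjusted p = 0.0421) and lost the call in 13 of 24 other settings. Slc7a14, a lysosomal relative, was not tested.

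Slc7a1 (CAT-1), the arginine and lysine carrier of most growing cells, gave different answers from its 2 probes. The probe in the fit read 10.3 to 47.8 (median 31.4) in cultured cells and 19.4, 14.2 and 16.4 in MH, and did not pass (0.83 ± 0.35, adjusted p = 0.0512). The other probe carried an outlier mark on LN511 replicate 3 and had been left out for it. That probe read 740, 410 and 806 in LN111, 1370, 723 and 1270 in LN511 and 963, 757 and 896 in Mat, against 5.56, 4.66 and 7.27 in MH. The marked value, 1270, lay between the other LN511 values, and the probe was not well above background on any MH array. With marked spots kept, Slc7a1 was at least 56.8-fold higher in cultured cells (7.19, adjusted p = 5.74e-09). It was the only one of the 82 member probes left out for a mark, and the reason for the mark is not given in the sources used here. The probe in the fit maps to chr12:7247219-7247791 (build rn4, per the file headers).

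**Figure D3:**
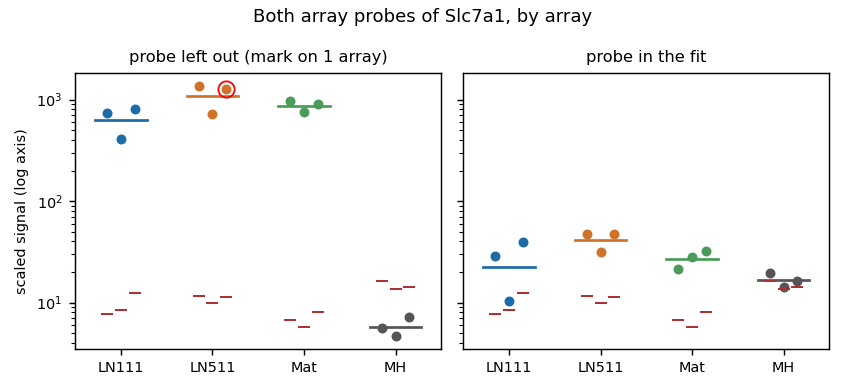
Scaled signal (log axis) of both probes of Slc7a1 on the 3 arrays of LN111, LN511, Mat and MH, with the probe left out of the fit on the left. Points are arrays, horizontal bars geometric means, red dashes the weakest signal counted as well above background on each array and the red circle the spot with an outlier mark; the left probe runs from 410 to 1370 in cultured cells and from 4.66 to 7.27 in MH.

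In the Slc38 family of sodium-coupled neutral amino acid transporters, 8 of 11 genes were tested. Slc38a1, Slc38a2 and Slc38a10 were higher in cultured cells, and Slc38a3 and Slc38a4 were lower. Slc38a4 (SNAT4), a system A carrier of liver, had 2156.7 to 5224.1 (median 4256.8) in cultured cells and 34000, 29760.7 and 30647.3 in MH. All cultured arrays lay below, at -3 ± 0.20 (adjusted p = 3.89e-07), or 7.99-fold lower. Slc38a3 (SNAT3), the glutamine carrier of system N, had 61.8 to 576.7 (median 235.4) and, in MH, 2258.8, 1529.7 and 2060.8, a difference of -3.19 ± 0.76 (adjusted p = 0.00323). Its groups did not overlap either, but the cultured arrays were spread widely, and replicate 2 was the lowest in each cultured group (92.5, 61.8 and 68). Slc38a2 (SNAT2), the system A carrier that rises when amino acids are withdrawn, had 2140.6 to 4194 (median 2325.6) in cultured cells and 1811.8, 1186.3 and 882.4 in MH, a difference of 1.08 ± 0.23 (adjusted p = 0.00157). Slc38a1 (SNAT1), a glutamine carrier known from brain, had 18.7 to 59.9 (median 31) and, in MH, 5.9, 4.8 and 6.4. It was at least 2.21-fold higher (2.52 ± 0.26, adjusted p = 1.06e-05), with 8 of 9 cultured arrays well above background and no MH array, but under normexp the difference was 0.05 (adjusted p = 0.774).

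The other differences of the Slc38 family were small. Slc38a9, the lysosomal arginine sensor of mTORC1, had 69.3 to 162.6 (median 116.8) in cultured cells and 168.2, 161.3 and 146.6 in MH, and did not pass (-0.48 ± 0.27, adjusted p = 0.127). Slc38a10 passed at a small size (0.34 ± 0.10, adjusted p = 0.0102), with overlapping arrays, and not under normexp (0.21, adjusted p = 0.0755) or with slide as a block (0.30, adjusted p = 0.202). Slc38a6 (-0.15) and the lysosomal Slc38a7 (-0.25) did not pass, and their differences were 0.90 (adjusted p = 0.0222) and 0.79 (adjusted p = 0.00997) without scaling between arrays, where the median of all genes stood at 0.86. Slc38a5, Slc38a8 and Slc38a11 were not tested. On the array's map the probe of Slc38a4 lies 444881 bases from that of Slc38a1 and 327490 from that of Slc38a2 on chromosome 7, so neighbours differed in direction there.

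Slc6a13 was the most strongly lowered of all members tested. This carrier of GABA, betaine and taurine, known from liver and kidney, had 4.1 to 57.7 (median 14) in cultured cells and 3529.4, 5140.5 and 4002.6 in MH. No arrays overlapped, 5 of 9 cultured arrays were well above background, and the difference was -8.09 ± 0.73 (adjusted p = 3.7e-06), which leans on dim readings in LN111 and LN511 (1 of 3 arrays well above background in each). In Mat, where all 3 arrays were well above background, it was -7.40, and under normexp the mean over the groups was -6.07. Slc6a12, the betaine and GABA carrier whose probe lies 27762 bases away on chromosome 4, had 23.2 to 110.2 (median 52.5) in cultured cells and 862.4, 690.9 and 967 in MH. It was lower by -4.05 ± 0.44 on the log2 scale (adjusted p = 1.49e-05), or 16.6-fold. Slc6a8, the creatine carrier, had 2032.8 to 7823.4 (median 3067.6) and, in MH, 434.2, 497.3 and 568.6. It was higher without overlap (2.80 ± 0.37, adjusted p = 5.73e-05), and replicate 2 was the highest array of each cultured group.

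Slc6a6, the taurine carrier, had 1008.6 to 2386.9 (median 1910.4) in cultured cells and 2435.3, 1092.6 and 2430.6 in MH, and did not pass (-0.17 ± 0.37, adjusted p = 0.691). Slc6a3, the dopamine carrier, had 3.7 to 316.3 (median 109.9) and, in MH, 5.4, 4.4 and 6, where it was not well above background. With 7 of 9 cultured arrays well above background it was at least 4.08-fold higher (3.52 ± 0.72, adjusted p = 0.00121), but LN511 replicate 2 lay below all MH arrays and the call was lost with slide as a block (2.83, adjusted p = 0.0917). In other settings the difference of Slc6a3 fell as low as 0.88, under that bound. A second Slc6a3 probe, not well above background in MH, gave 1.47. Slc6a9 (GlyT1), a glycine carrier, had 178.4 to 362.9 (median 260.6) in cultured cells and 497.6, 397.5 and 512.5 in MH. It was lower without overlap (-0.82 ± 0.21, adjusted p = 0.00493), did not pass with slide as a block (-1, adjusted p = 0.0507), and turned its sign without scaling between arrays (0.22, adjusted p = 0.521). Slc6a17, a neutral amino acid carrier of neurons, had 20.2 to 66.2 and, in MH, 18.7, 8 and 22.4, was at least 1.99-fold higher (1.25 ± 0.39, adjusted p = 0.0149) and lost the call without MH replicate 2 (0.80, adjusted p = 0.0979), with slide as a block (1.66, adjusted p = 0.074) and under normexp, where the sign turned (-0.22, adjusted p = 0.33). Slc6a18, known from kidney, did not pass (-0.22 ± 0.15, adjusted p = 0.208). The other 10 Slc6 members, Slc6a14 among them, were not tested, and Slc6a14 read 2.3 to 5 in cultured cells and 6.5, 5.5 and 7.3 in MH.

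The Slc36 and Slc43 families were small. Slc36a4, which carries proline and tryptophan, had 189.1 to 688.8 (median 417.7) in cultured cells and 78.7, 115.5 and 105.2 in MH. It was higher without overlap (2.05 ± 0.26, adjusted p = 4.31e-05), while Slc36a1, the lysosomal proton-coupled carrier, Slc36a2 and Slc36a3 were not tested. Slc43a1 (LAT3), a carrier of large neutral amino acids, had 4.5 to 21.9 (median 15.5) in cultured cells and 434.1, 228.9 and 339.5 in MH. All cultured arrays lay below all MH arrays, 4 of 9 were well above background, and the difference was -4.80 ± 0.51 (adjusted p = 1.21e-05). Slc43a2 (LAT4), its relative with the same kind of substrate, had 537.1 to 1637.2 (median 915.5) and, in MH, 241.2, 143.6 and 346.1, and was higher without overlap (1.95 ± 0.23, adjusted p = 2.97e-05). A second Slc43a2 probe, not well above background in MH, gave 4.03. Slc43a3, a nucleobase carrier, had 13.4 to 1558.1 (median 337.1) and, in MH, 957.6, 387.1 and 908.9, with overlap, and did not pass (-1.31 ± 0.91, adjusted p = 0.214).

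**Figure D4:**
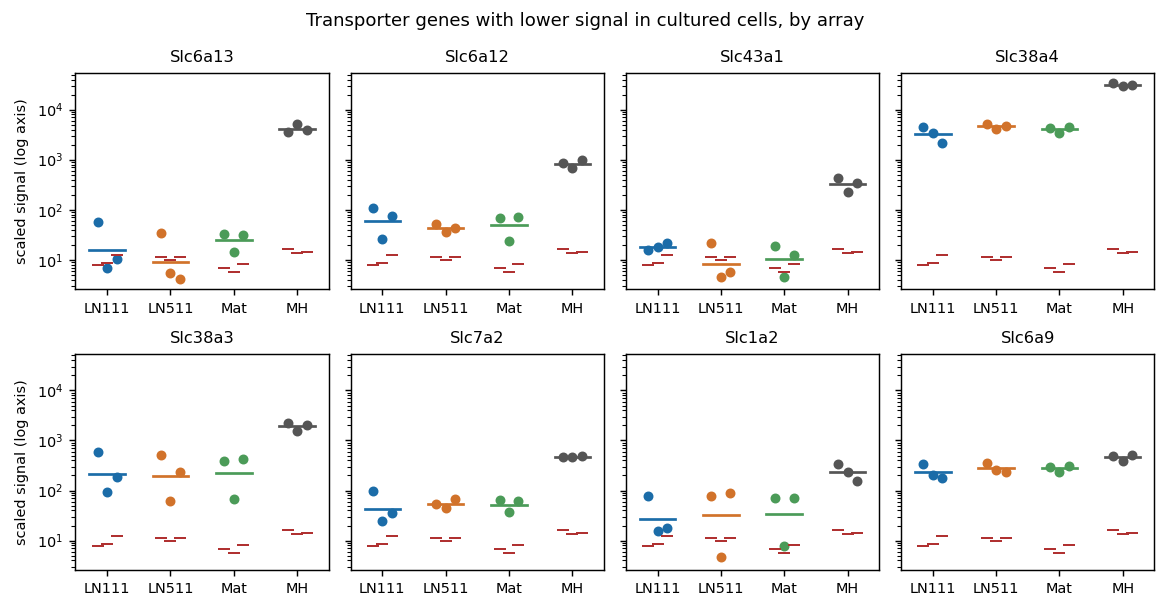
Scaled signal (log axis, 75th percentile of each array at 1000) on the 3 arrays of LN111, LN511, Mat and MH for the 8 genes called lower in cultured cells. Points are arrays, horizontal bars geometric means and red dashes the weakest signal counted as well above background on each array; in all 8 panels the 3 MH arrays lie above all 9 cultured arrays.

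Set against MH one group at a time, each substrate gave 18 higher and 8 lower members of 37, where 66.8% (LN111), 67.6% (LN511) and 67.3% (Mat) of all genes passed. Of all genes, 27% were higher and 39.8% lower in LN111, 31.1% and 36.5% in LN511, and 26.2% and 41% in Mat. These 3 comparisons share the MH arrays, and the equal counts did not hold the same members. Slc1a3, Slc6a3, Slc7a8 and Slc38a10 were called higher in LN111 and Mat but not in LN511. Slc3a1, Slc7a1 and Slc7a12 were called higher in LN511 only, and Slc7a9 in LN111 only. Slc3a2 was not called in Mat, and Slc6a17 and Slc7a4 were not called in LN111. Among the lower members, Slc1a2 was called in LN111 only, Slc43a3 in LN511 only and Slc6a18 in Mat only. Without scaling between arrays the counts were 25 higher and 6 lower in LN111, and 29 higher and 5 lower in Mat. There, 49.3% of all genes were higher and 15.1% lower in LN111 (median 0.77), and 65.5% were higher and 9.93% lower in Mat (median 1.34). The arrays lay on 2 slides, with the MH arrays and Mat replicates 1 and 2 on one and the other arrays on the second, so LN111 and LN511 shared no slide with MH and only Mat lay on both. With slide as a block 15 members passed in LN111 and 15 in LN511, where 43% and 44.3% of all genes did. Within the slide that held MH, Mat against MH gave 14 higher and 8 lower of 38 members tested, where 24.4% of all genes were higher and 37.7% lower. Of the 29 members called in cultured cells, 28 had the same sign there, the exception being Slc7a12 (-0.07), and 22 passed (the value of Slc6a3 there is from its other probe). With slide as a block in the fit of all arrays, all 29 kept their sign and 18 passed, against 52.9% of all genes. Slc7a6 stood at 6.20, Slc1a5 at 3.13, Slc6a13 at -7.59 and Slc38a4 at -3.05 in Mat minus MH within the slide. Leaving out replicate 2 of all 3 cultured groups gave 20 higher and 9 lower (29.4% and 41% of all genes), a setting chosen after seeing the data.

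The second set of comparisons asked whether the coating changed the transporter genes within 3 h. Between LN111 and Mat, limma called 0 of 35 members tested, as it called 0% of all 17933 genes, and 6 members had an unadjusted p under 0.05, as did 12.2% of all genes. The 3 members with the smallest p were Slc43a2 (0.87 ± 0.18, adjusted p = 0.323), Slc6a18 (0.45 ± 0.16, adjusted p = 0.355) and Slc3a1 (-0.86 ± 0.31, adjusted p = 0.356), none of which passed.

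Between LN511 and Mat, 2 members of 35 were higher and 0 lower, against 8.2% of all genes (7.05% higher, 1.15% lower). Slc7a12 had 222.4, 154 and 67.7 in LN511 and 19.5, 17.6 and 21.6 in Mat, a difference of 2.76 ± 0.48 (adjusted p = 0.0127) with no overlap. The call was lost without LN511 replicate 2 (2.66, adjusted p = 0.0504), without Mat replicate 1 (2.77, adjusted p = 0.0526), with slide as a block (2.62, adjusted p = 0.182) and within the slide that held Mat replicate 3 (2.62, adjusted p = 0.254). Slc6a18 had 80.3, 84.7 and 89.4 in LN511 and 45.6, 56.3 and 62.5 in Mat (0.64 ± 0.16, adjusted p = 0.047), also with no overlap. It did not pass in 15 other settings, without scaling between arrays the sign turned (-0.46, adjusted p = 0.16), and leaving out any one array but LN111 replicate 1 ended the call. The other probe of Slc6a18 was not well above background on any array, so it cannot speak to this call. Same-numbered LN511 and Mat arrays deviated together, as did those of LN111 with either group, though the labels do not say whether the numbers pair. With the replicate number as a block, a pairing taken from the data, 2 members were higher and 5 lower, against 13.3% of all genes. The 5 lower ones were Slc1a3 (-2.98, adjusted p = 0.015), Slc6a3 (-2.48, adjusted p = 0.0267), Slc43a3 (-2.01, adjusted p = 0.041), Slc7a8 (-1.38, adjusted p = 0.0207) and Slc7a5 (-0.92, adjusted p = 0.0231).

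Between LN111 and LN511, 5 members were higher and 2 lower, against 17.9% of all genes (6.12% higher, 11.8% lower). Slc7a8 had 1116.3, 603.4 and 1977.6 in LN111 and 261.2, 68.3 and 169.9 in LN511. Every LN111 array lay above every LN511 array, with a difference of 2.93 ± 0.65 (adjusted p = 0.0193). Slc43a2 had 1637.2, 1390.8 and 1470.1 in LN111 and 537.1, 556.2 and 594.7 in LN511. The replicates of each group lay close together and far from the other group (1.41 ± 0.18, adjusted p = 0.00383). Slc1a3 had 1143, 307.4 and 1248.6 in LN111 and 163, 6.4 and 56.6 in LN511 (4.29 ± 1.20, adjusted p = 0.0442). Its probe had outlier-marked spots, left out of these values, on LN111 replicate 3, LN511 replicates 1 and 2 and MH replicate 1. With marked spots kept, its linear mean on LN511 replicate 2 was 9.79. Slc6a3 had 316.3, 120.7 and 307.5 in LN111 and 55.8, 3.7 and 10.8 in LN511 (4.12 ± 0.98, adjusted p = 0.0251). Of the 3 LN511 arrays, 2 were well above background for Slc1a3 and 1 for Slc6a3, so the sizes of these differences rest in part on dim readings. In both genes the groups did not overlap, and replicate 2 was the lowest of each group. The second probe of Slc1a3 read 78.6, 38.6 and 113 in LN111 and 24.3, 4.62 and 5.68 in LN511. That of Slc6a3 read 54.4, 36 and 83.6 in LN111 and 32.4, 8.76 and 20.2 in LN511. Both gaps were smaller than those of the probes in the fit. Slc38a10 was higher by a small amount (0.49 ± 0.13, adjusted p = 0.034), a call that was lost in 14 of 22 other settings.

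In the other direction, Slc7a12 had 15.2, 39.1 and 32.8 in LN111 and 222.4, 154 and 67.7 in LN511 (-2.30 ± 0.48, adjusted p = 0.0155). Slc3a1 had 13.3, 32.8 and 20.6 in LN111 and 60.8, 40.5 and 50.1 in LN511 (-1.26 ± 0.31, adjusted p = 0.0277). Neither overlapped, and 2 of 3 LN111 arrays for Slc7a12 and 1 of 3 for Slc3a1 were well above background. Slc7a5 had 76.7, 34.4 and 57.9 in LN111 and 30, 24.8 and 26.6 in LN511 and did not pass (0.98 ± 0.32, adjusted p = 0.0676), although the groups did not overlap. It passed with quantile scaling (adjusted p = 0.0378), without scaling (0.0361), with the replicate block (0.0108), without LN111 replicate 2 (0.0153) and without replicate 2 of all 3 cultured groups (0.0235). Of these 7 calls, that of Slc43a2 held when each array was left out in turn. The count was 2 without LN111 replicate 1, LN111 replicate 3, LN511 replicate 2 or LN511 replicate 3 (10.2% to 12.7% of all genes). It was 4 without Mat replicate 1 (12.9%), and was 2 within the slide that held all LN111 and LN511 arrays (9.36%). With the replicate number as a block it was 10, against 27.2% of all genes. An F test over the 3 coatings passed for Slc43a2 (adjusted p = 0.00737), Slc7a12 (adjusted p = 0.0164) and Slc7a8 (adjusted p = 0.0486), where 12.9% of all genes passed.

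Markers of stellate cells and fibroblasts moved with the members that were higher on LN111. The summed scaled signal of the 6 markers was 36747, 47364 and 67064 in LN111, 7933, 1910 and 2849 in LN511, 22208, 16133 and 23777 in Mat and 1259, 1059 and 1469 in MH. The order LN111, Mat, LN511 was that of the group means of Slc1a3, Slc6a3, Slc7a8 and Slc43a2. All 6 markers were well above background on all 9 cultured arrays, and Col1a1, which makes up most of the sum in the cultured arrays, had 31302.3, 44367.8 and 59029.9 in LN111 and 6974.1, 1051.1 and 2053.1 in LN511. Des had 1502.3, 397.1 and 2388.1 in LN111 and 263.8, 38.1 and 162.8 in LN511. Its replicate 2 was the lowest of each cultured group, as in Slc1a3 and Slc6a3, and so were those of Dcn and Pdgfrb. The markers did not share this pattern, since Acta2 was lowest in replicate 2 of no cultured group and Col1a1 not in that of LN111. Lrat, of quiescent stellate cells, had 65.6, 477 and 58.9 in LN111 and 89.7, 716.8 and 262.8 in LN511, with replicate 2 the highest of each group. The part of such cells in these differences was not tested.

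**Figure D5:**
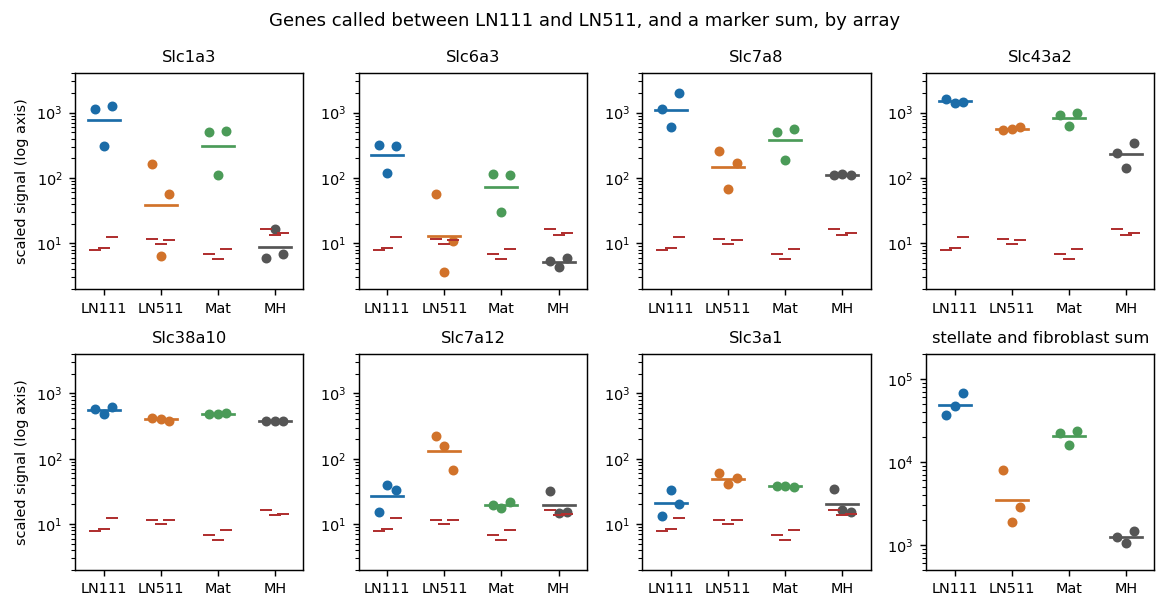
Scaled signal (log axis, 75th percentile of each array at 1000) on the 3 arrays of LN111, LN511, Mat and MH for the 7 genes called between LN111 and LN511, and the summed scaled signal of 6 stellate cell and fibroblast markers. Points are arrays, horizontal bars geometric means and red dashes the weakest signal counted as well above background on each array; in Slc1a3, Slc6a3, Slc7a8, Slc43a2 and the marker sum LN111 lies highest and LN511 lowest of the cultured groups.

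Replicate 2 stood apart within each cultured group for many genes of the array, members among them. Of the 37 members tested with MH, 10 were lowest in replicate 2 of all 3 cultured groups and 6 were highest there, where 12.9% and 17.7% of all genes were. The share of members highest there was thus no greater than that of all genes. The 10 were Slc1a2, Slc1a3, Slc1a5, Slc38a3, Slc43a3, Slc6a12, Slc6a3, Slc7a2, Slc7a5 and Slc7a8, and the 6 were Slc38a1, Slc38a9, Slc6a17, Slc6a6, Slc6a8 and Slc7a4. Beside this, replicate 2 was the lowest of each cultured group in the sum of the hepatocyte markers (151224 in LN111, 177832 in LN511 and 117694 in Mat) and the highest in that of the biliary and progenitor markers (46769, 97727 and 60832) and in that of the mesothelial markers (13615, 30144 and 19597), which is nearly all Msln, while Wt1 was lowest there. The part of this in the spread was not tested.

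The genes that answer to amino acid supply were set beside the transporters. Of 21 genes of the GCN2 and ATF4 amino acid response, 13 were higher and 3 lower in cultured cells, with a median difference of 1.5 (-0.18 over all genes), where 30.8% of all genes were higher and 42% lower. The largest were Aldh18a1, of proline synthesis (6.05 ± 0.18, adjusted p = 2.2e-09), Phgdh, of serine synthesis (5.33 ± 0.33, adjusted p = 2.44e-07), and Asns, asparagine synthetase (4.06 ± 0.26, adjusted p = 2.58e-07). Atf4 itself was higher by 0.76 ± 0.22 (adjusted p = 0.00951), Trib3 did not pass (-0.19), and Atf5 (-2.24), Cebpb (-1.02) and Shmt2 (-2.03) were lower. Of 25 tested genes of mTORC1 amino acid sensing, which reads lysosomal and cytosolic amino acids, 4 were higher and 8 lower (median -0.25), fewer of them called than the 72.8% of all genes, with Rragd at 2.46 ± 0.45 (adjusted p = 0.000575) and Lamtor4 at -1.88 ± 0.11 (adjusted p = 1.08e-07). Of 15 tested organelle and other amino acid carriers, 4 were higher and 8 lower (median -0.62). The mitochondrial aspartate and ornithine carriers of the urea cycle, Slc25a13 (-4.98 ± 0.23, adjusted p = 3.18e-08) and Slc25a15 (-5.07 ± 0.28, adjusted p = 9.97e-08), were lower. Between LN511 and Mat and between LN111 and Mat, 0 of these 3 lists' genes passed (8.2% and 0% of all genes did). Between LN111 and LN511 2 of 21 response, 1 of 25 sensing and 1 of 14 organelle carrier genes did, against 17.9% of all genes.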

How the data were processed

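Each of the 12 samples was hybridised to an Agilent array in a single colour, Cy3, from 100 ng of total RNA (per the labels' protocols). Per the file headers, the deposited intensity is a background-subtracted processed signal, made by Agilent's Feature Extraction software, whose version the submitters' processing notes give as 10.7. The authors' deposited value table holds the same linear intensity (largest gap 0.0072 on the log2 scale), uncentred and unscaled, with column medians of 43.6 to 61.8 in LN111 and LN511, 57.5 to 90.9 in Mat and 23.6 to 27.6 in MH.

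From the deposited intensity, log2 of the signal minus the array's 75th percentile was computed. Control and outlier-marked spots were left out, which lost 109 probes, spots of a probe were averaged, and a probe with no unmarked spot on an array was dropped. Each gene was read from its usable probe with the highest mean signal. Members carry the gene names of the array file. Other probes were named through RefSeq by accession, symbol or older symbol where one matched, and otherwise kept the file's name. Role groups, gene lists and members were chosen with earlier results of these data known. Tests were two-sided, with limma 3.58.1 in R 4.3.3 (lmFit, eBayes), Benjamini-Hochberg adjustment over all genes tested and a threshold of 0.05. Comparisons with MH used all 12 arrays, and those among coatings the 9 cultured arrays. Fits were tested on simulated data. Errors are standard errors of the fit, and the number of arrays limits the precision.

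Genes were named by role group and by size of difference among those that passed (up to 4 each way), with the members of a list of 28 always named, and for each coating comparison every member that passed or the 3 with the smallest p. Alternatives were normexp (offset 50), quantile or no scaling, no filter, a strict filter, the mean of probes, signals raised to background, the value table, outlier marks kept, replicate and slide blocks, each slide alone, and each array left out. Same-numbered LN511 and Mat arrays deviated together (correlations 0.54, 0.72 and 0.13). The replicate block took the numbers as pairs in every group of a fit, a pairing taken from the data. LN111 with Mat gave nearly the same correlations (0.55, 0.71 and 0.09), and LN111 with LN511 similar ones (0.47, 0.54 and 0.07). The pattern was thus shared by all 3 cultured groups, and the labels do not say whether the numbers pair. Correlations with MH were -0.03 to 0.06.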

Additional observations from a re-analysis of the deposited data

How the results depend on the processing

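Of the 29 members called in cultured cells against MH, 15 passed with the same sign in every setting that tested them, and 14 lost the call in at least 1. That count was 45 of 60 with no filter on dim probes, where 63% of all genes passed. It was 15 of 20 with the strict filter (72.3% of all genes) and 18 of 37 with slide as a block (52.9%). For LN111, LN511 and Mat against MH, 26 passed. The strict filter, which tested 20 members, gave 14, 13 and 15, where 66.5%, 66.2% and 67.3% of all genes passed. Slide as a block gave 15 and 15 for LN111 and LN511 (43% and 44.3% of all genes). No filter gave 45 for Mat (63.9% of all genes). Leaving out each array gave 26 to 30 for the cultured mean (67.7% to 73.5% of all genes) and 23 to 26 for LN111 (62.3% to 65.9%). It gave 23 to 26 for LN511 (61.8% to 68.8%) and 19 to 29 for Mat (60.9% to 68.7%). For LN511 against Mat, where 2 passed, the count was 4 with normexp (19.8% of all genes) and 1 with quantile scaling (6.36%). Without scaling it was 21 of 35 (61.2% of all genes, whose median was -0.98). It was 1 with no filter (4.21%), 0 with the strict filter (5.44%) and 7 with the replicate block (13.3%). With slide as a block (0.73%) or within the second slide (0.461%) it was 0. Without replicate 2 of the cultured groups, a setting chosen after seeing the data, it was 0 (4.05%). Leaving out each array gave 0 to 3 (3.54% to 9.6%). For LN111 against LN511 it was 4 with no filter (6.87% of all genes), 3 with the strict filter (14.6%) and 2 within the second slide (9.36%). It was 10 with the replicate block (27.2%) and 2 to 9 leaving out each array (10.2% to 22.9%). For the F test it was 13 without scaling, 1 with the strict filter, 8 with the replicate block, 1 with slide as a block, 5 without replicate 2 of the cultured groups and 1 to 7 leaving out each array. For LN111 with LN511 and with Mat, 1 of 3 same-numbered pairs had a correlation under 0.1 (0.07 and 0.09). The replicate block still took the numbers as pairs in all 3 cultured groups, LN111 included. The lowest correlation of LN511 with Mat was little higher (0.13). The replicate block changed the count by over 1.5 times in no comparison with MH. For LN111 against Mat 0 members passed in every setting that was run. Against MH, the sign turned without scaling for Slc38a6 (0.90), Slc38a7 (0.79), Slc6a18 (0.83), Slc6a6 (0.87) and Slc6a9 (0.22), where all genes had a median of 0.86, and under normexp for Slc6a17 (-0.22), Slc7a12 (-0.22) and Slc7a9 (-0.49), where it was -0.40 (0.18 with quantile scaling). For LN511 against Mat it turned without scaling for Slc6a18 (-0.46). The cause was not tested. Signals near each array's background, in MH above all, limit what can be read for the dim members.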
